A study of Mus musculus with 3 samples.

Results

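The genes described here are 10 genes taken as marks of lung epithelium in general and not of 1 epithelial cell type. They were followed in RNA of endothelial cells (ECs) sorted from adult lung. The members were fixed by name (*Epcam*, *Cdh1*, *Krt7*, *Krt8*, *Krt18*, *Krt19*, *Nkx2-1*, *Elf3*, *Esrp1* and *Muc1*), and all 10 were found among the 24346 gene symbols measured. *Sftpc* and *Scgb1a1*, which encode secreted proteins of the lung epithelium, served as reference genes within each library. The ECs came from lungs of wild type male C57BL/6J mice aged 6 to 8 weeks and were not cultured. Mice received an antibody against VE-cadherin by injection before they were killed, and cells carrying CD31 but neither CD45 nor podoplanin were then sorted. There were 3 libraries, S38, S44 and S52, all of 1 condition, so no contrast between conditions exists. The labels do not say whether the libraries came from separate animals, so the spread between them may be partly technical. No lung library without sorting and no sorted epithelial library was analysed here.

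Epithelial sheets are held together by adherens junctions built on E-cadherin, the product of *Cdh1*, and by the adhesion molecule encoded by *Epcam*. Their cytoskeleton contains keratin filaments, in which a type I keratin (here *Krt18* and *Krt19*) pairs with a type II keratin (here *Krt7* and *Krt8*). In the lung, *Nkx2-1* encodes a homeobox factor required for the epithelial lineage, *Elf3* an ETS factor of epithelia and *Esrp1* a regulator of epithelial splicing. *Muc1* encodes a mucin anchored in the apical membrane. Surfactant protein C (*Sftpc*) is made by alveolar type 2 cells and the secretoglobin *Scgb1a1* by club cells of the airways. ECs use VE-cadherin (*Cdh5*) at their junctions and vimentin (*Vim*) as their main intermediate filament.

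The unit is FPKM, fragments scaled to gene length and library size, so levels of different genes can be set side by side. The number of fragments per library was estimated from the steps between low values at 38000000 for S38, 39000000 for S44 and 34000000 for S52. Counting intervals were derived from these estimates and hold no variation between preparations. The endothelial identity of the fraction was clear from its markers. *Pecam1*, which encodes CD31, was at 1168 ± 45.5 FPKM and *Cdh5* at 921 ± 51.5 FPKM (SD, n = 3 libraries for each). All 10 genes of an endothelial list were at 1 FPKM or above in every library, as were 43.9% of all genes. All 6 secreted alveolar type 2 genes and all 4 platelet genes of the lists used below were too, so this count does not mark a cell type.

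All members were detected above 0 in every library, at low levels compared with the endothelial genes. The median member had an FPKM of 7.52 (S38), 3.79 (S44) and 1.66 (S52), or 4.32 ± 2.97 FPKM (SD, n = 3). Of the 10 members, 7 were at 1 FPKM or above in every library, a level that 43.9% of all genes reached. *Epcam* and *Nkx2-1* were below it in S52, and *Esrp1* was below it in S44 and S52. The secreted-protein genes were higher by orders of magnitude. *Sftpc* had an FPKM of 3333 (S38), 2862 (S44) and 658 (S52), and *Scgb1a1* was at 2669, 2213 and 378 FPKM in the same order.

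**Figure D1:**
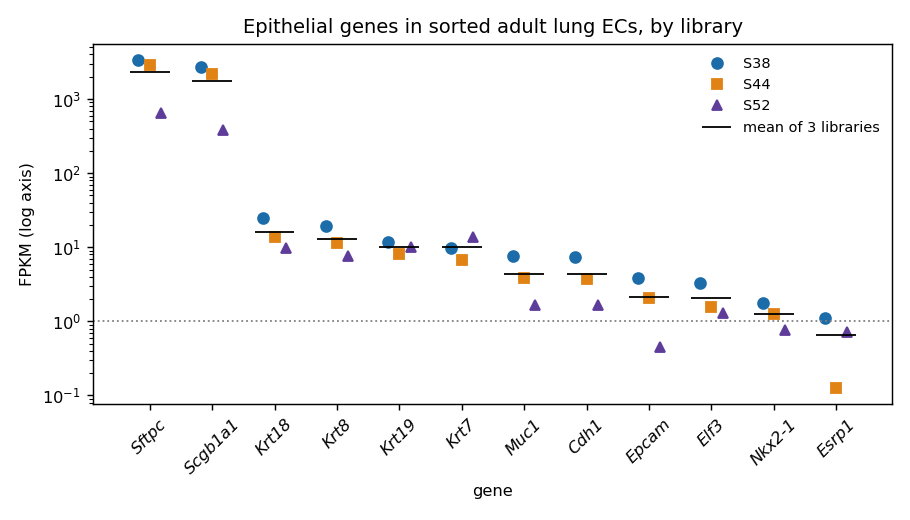
FPKM (log axis) of *Sftpc*, *Scgb1a1* and the 10 epithelial genes in each of the 3 libraries, with points for libraries, a bar for the mean and a dotted line at 1 FPKM. The secreted-protein genes lie between 378 and 3333 FPKM and the 10 epithelial genes between 0.127 and 24.9 FPKM.

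*Krt18* and *Krt8* had the highest means and were the highest members in S38 and S44, while in S52 *Krt7* was highest and *Krt19* next. *Krt18* had an FPKM of 24.9 (S38), 13.7 (S44) and 9.75 (S52), with a mean of 16.1 ± 7.88 FPKM (SD, n = 3). *Krt8* was at 19.6, 11.4 and 7.62 FPKM, with a mean of 12.9 ± 6.12 FPKM (SD, n = 3). Both keratins were highest in S38 and lowest in S52. *Krt19* was at 11.9, 8.19 and 10.1 FPKM, the least variable member, with a mean of 10.1 ± 1.84 FPKM (SD, n = 3). *Krt7* was at 9.63, 6.68 and 13.6 FPKM, with a mean of 9.98 ± 3.48 FPKM (SD, n = 3). *Krt7* was the only member that was highest in S52.

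The surface proteins came next. *Muc1* had an FPKM of 7.57 (S38), 3.81 (S44) and 1.68 (S52). *Cdh1* was at 7.48, 3.77 and 1.64 FPKM in the same order. *Epcam* was at 3.8, 2.07 and 0.448 FPKM. All 3 were highest in S38 and lowest in S52. The endothelial *Cdh5* exceeded *Cdh1* by 117-fold in S38, 259-fold in S44 and 555-fold in S52. Between libraries *Cdh5* varied by 1.11-fold and *Cdh1* by 4.57-fold.

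The regulators had the lowest means and were the lowest members in S38 and S44, while in S52 *Epcam* was lowest of all 10. *Elf3* had an FPKM of 3.34 (S38), 1.54 (S44) and 1.29 (S52). *Nkx2-1* was at 1.75, 1.25 and 0.767 FPKM. *Elf3* and *Nkx2-1* were both lowest in S52. *Esrp1* was at 1.12, 0.127 and 0.725 FPKM, so that its lowest library was S44. The value in S44 corresponds to an estimated 13 fragments, with a counting interval of 0.0677 to 0.217 FPKM (exact Poisson, 95%). Against 111 fragments in S38 and 65 in S52, the low *Esrp1* value of S44 lay outside counting error.

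In the order of means, *Krt18* was followed by *Krt8*, *Krt19*, *Krt7*, *Muc1*, *Cdh1*, *Epcam*, *Elf3*, *Nkx2-1* and *Esrp1*. Of the 9 neighbouring pairs, 6 kept their order in every library. The exceptions were *Krt8* and *Krt19*, *Krt19* and *Krt7*, and *Epcam* and *Elf3*, each of which kept it in 2 of 3 libraries. With 3 libraries the smallest p of an exact two-sided sign-flip test is 0.25, so no order could pass the test. *Muc1* and *Cdh1* were almost equal and differed by 0.016 ± 0.0057 (SD, n = 3) on the log2(FPKM + 1) scale, a difference far below the spread of either gene between libraries. Without S52 all 9 pairs kept their order.

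On GRCm38, with GENCODE M21 gene limits, *Krt7* (chr15:101411043-101430313, plus strand), *Krt8* (chr15:101996698-102004482, minus strand) and *Krt18* (chr15:102028180-102032027, plus strand) lie on 1 chromosome, and *Krt19* is at chr11:100140810-100148665 (minus strand). *Epcam* is at chr17:87635979-87651129 and *Muc1* at chr3:89229057-89233381, both on the plus strand, as is *Cdh1* at chr8:106603351-106670246. The regulators are all on the minus strand, *Nkx2-1* at chr12:56531958-56536908, *Elf3* at chr1:135253575-135258568 and *Esrp1* at chr4:11331933-11386783.

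The promoters of 7 members shared a sequence feature. Members and motifs were chosen with earlier results of these data known, so the count is a description and not an independent test. RefSeq promoters (GRCm38.p6) were at hand for these 7 members and not for *Cdh1*, *Krt19* and *Esrp1*. The 250 bases before the start were searched on both strands for 5 short motifs. The median GC content of these bases was 57.2% over the member promoters and 52.4% over all promoters, and the shares below are not matched for it. CAGGTG, an E-box to which repressors of the Zeb and Snail families bind, was present in 7 of 7 member promoters, against 17.2% of 32851 promoters of all genes. Counted per gene, it was in 19.4% of 27025 genes, in 16 of the 32 genes with a promoter in 4 further lists of epithelial genes, and in 2 of 8 endothelial genes. The 4 epithelial lists ranged from 2 of 7 transcription and splicing genes to 5 of 8 membrane and protease genes. In the lists of single epithelial cell types it was in 0 of 3 secreted and 1 of 5 cell-bound alveolar type 2 genes. It was in 1 of 3 secreted and 0 of 3 cell-bound club cell genes, 1 of 4 ciliated cell genes and 1 of 5 alveolar type 1 genes. Basal and neuroendocrine genes held it in 1 of 2 each. The counts of the other motifs were near their shares of all promoters. TATAAA was found in 1 member promoter (*Muc1*), with 12.4% of all promoters holding it. CGGAAG, the core of ETS sites (13.6% of all promoters), CTCAAG, a core of Nkx2-1 sites (13.3%), and ACCGGTT, a Grainyhead site (0.831%), were in none of the 7. A match of letters is not a bound site, and no binding was measured. The whole window is shown for *Epcam*, the member with the largest difference between S38 and S52, and 30 bases around each E-box for *Krt7*, *Krt18*, *Elf3* and *Muc1*, which cover keratins, a regulator and a surface protein. Capitals mark CAGGTG or its reverse complement CACCTG, and each sequence reads 5′ to 3′ on the strand of its gene.
*Epcam*, plus strand, chr17:87635729-87635978: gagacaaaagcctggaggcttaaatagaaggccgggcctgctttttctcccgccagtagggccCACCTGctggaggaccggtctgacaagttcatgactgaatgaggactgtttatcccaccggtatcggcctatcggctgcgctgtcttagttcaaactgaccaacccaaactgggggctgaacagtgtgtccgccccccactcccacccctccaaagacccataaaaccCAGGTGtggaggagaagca
*Krt7*, plus strand, chr15:101412347-101412376: ccgccctgtcccCACCTGtgtgcgctcagc
*Krt18*, plus strand, chr15:102027990-102028019: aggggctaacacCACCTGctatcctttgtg
*Elf3*, minus strand, chr1:135258595-135258624: gaatatgcaaatCACCTGggacagggagcc
*Muc1*, plus strand, chr3:89228810-89228839: cctccacatacaCACCTGgggtagtcaagg
*Muc1*, plus strand, chr3:89228974-89229003: tttgttacctgtCACCTGctctgactgtgc

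In *Epcam* the E-boxes began 187 and 19 bases before the RefSeq start, and in *Muc1* 234 and 70 bases before it. The distance was 44 bases in *Krt7*, 214 in *Krt18* and 140 in *Elf3*. GENCODE M21 begins *Krt7* farther upstream than RefSeq, and its E-box lies inside an exon of that annotation, as does that of 1 further member among the 7. All 7 promoters hold the motif. Of their genes, *Krt7* was highest in S52 and the other 6 were highest in S38. A motif present in all 7 promoters cannot be related to these differences.

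The libraries were next compared pairwise. Each is 1 library of the same condition, so these ratios have no replicate check and are set beside the same ratios over all genes whose mean reached 1 FPKM. *Esrp1* was the only member below that mean, and it is kept in the counts. All 10 members were lower in S44 than in S38, a direction shared by 54.9% of 11770 genes. The median log2 ratio of FPKM + 1 was -0.75 over the members and -0.033 over all genes. The difference was over 2-fold for 2 members, *Elf3* and *Esrp1*, against 3.05% of all genes. *Cdh1* was 1.98-fold and *Muc1* 1.99-fold lower in S44, *Epcam* 1.83-fold, *Krt18* 1.82-fold and *Krt8* 1.72-fold. The smallest differences were those of *Krt19* (1.45-fold), *Krt7* (1.44-fold) and *Nkx2-1* (1.39-fold). The secreted-protein genes differed less, with *Sftpc* 1.16-fold and *Scgb1a1* 1.21-fold lower in S44.

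Between S52 and S38 the members spread over a wide range. S52 was lower for 9 of 10, against 56.9% of all genes, with a median log2 ratio of -1.09 over the members and -0.083 over all genes. The difference was over 2-fold for 7 of 10, against 11.7% of all genes. *Epcam* was 8.49-fold lower in S52 (5.60 to 13.6, 95% counting interval), *Cdh1* 4.57-fold (3.88 to 5.43) and *Muc1* 4.51-fold (3.69 to 5.53). *Sftpc* was 5.06-fold lower (4.98 to 5.16) and *Scgb1a1* 7.06-fold lower (6.83 to 7.30). The interval of *Epcam* lay above that of *Sftpc* and included that of *Scgb1a1*. The intervals of *Cdh1* and *Muc1* included that of *Sftpc* and lay below that of *Scgb1a1*.

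A second range was held by *Elf3* (2.60-fold lower in S52), *Krt8* (2.57-fold), *Krt18* (2.56-fold) and *Nkx2-1* (2.28-fold). The upper ends of their counting intervals were 3.42, 2.86, 2.87 and 3.19, all below the interval of *Sftpc*. *Esrp1* was 1.54-fold lower (1.12 to 2.11) and *Krt19* 1.17-fold lower (1.04 to 1.32). *Krt7* differed in the other direction, at 1.41-fold higher in S52 (1.32 to 1.52). The counting intervals of *Krt19* and *Krt7* did not overlap those of the other keratins. These intervals hold no variation between animals or preparations.

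**Figure D2:**
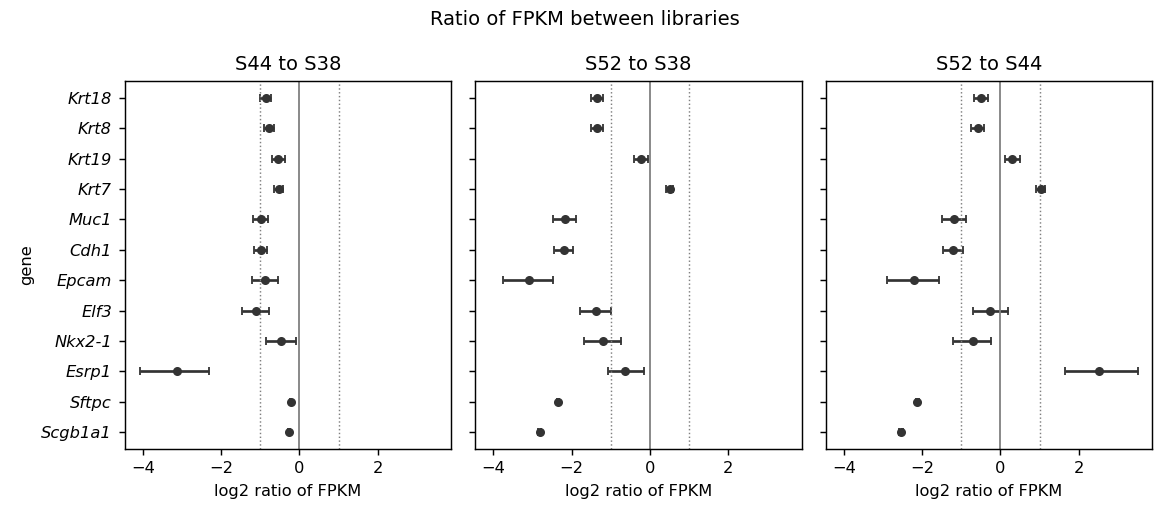
Log2 ratio of FPKM between each pair of libraries for the 10 epithelial genes, *Sftpc* and *Scgb1a1*. Bars are 95% counting intervals from estimated fragments, and dotted lines mark a 2-fold difference. From S38 to S52 the points run from 8.49-fold lower for *Epcam* to 1.41-fold higher for *Krt7*.

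Between S52 and S44, 7 of 10 members were lower in S52, against 55.5% of all genes, with a median log2 ratio of -0.40 over the members and -0.062 over all genes. Over 2-fold lower in S52 were 3 members, *Epcam* (4.63-fold), *Cdh1* (2.31-fold) and *Muc1* (2.27-fold), against 10.3% of all genes. Over 2-fold higher in S52 were *Krt7* (2.04-fold) and *Esrp1* (5.69-fold), against 3.87% of all genes. *Krt19* was 1.23-fold higher. *Sftpc* was 4.35-fold and *Scgb1a1* 5.85-fold lower in S52, so *Epcam* was the only member whose interval (2.99 to 7.52) reached the value of *Sftpc*. The order was kept by 7 members, which followed the order S38, S44, S52 from high to low, as did 26.6% of all genes, and the other 3 (*Krt7*, *Krt19* and *Esrp1*) were lowest in S44, as were 28.2%.

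**Figure D3:**
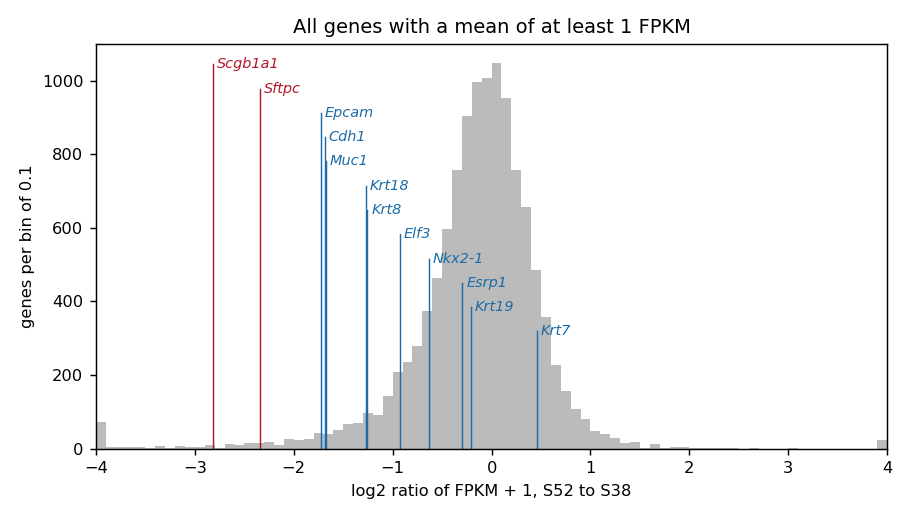
Histogram of the log2 ratio of FPKM + 1, S52 to S38, over the 11770 genes whose mean reached 1 FPKM, in bins of 0.1 and with ratios beyond 4 placed in the end bins. Lines mark the epithelial genes (blue) and the secreted-protein genes (red). *Krt7*, *Krt19* and *Esrp1* lie within the body of the histogram, and *Epcam*, *Cdh1* and *Muc1* lie in its lower tail.

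Setting each member against *Sftpc* in the same library removes any scaling of whole libraries. The log2 ratio of the median member to *Sftpc* was -9.00 ± 0.496 (SD, n = 3), and to *Scgb1a1* it was -8.50 ± 0.678 (SD, n = 3). Both reference transcripts are short, at 792 bp for *Sftpc* and 476 bp for *Scgb1a1*, so the distance to them depends on how length was corrected. Per 1000 FPKM of *Sftpc*, *Epcam* had an FPKM of 1.14 (S38), 0.724 (S44) and 0.680 (S52). *Cdh1* was at 2.24, 1.32 and 2.49, and *Muc1* at 2.27, 1.33 and 2.55 on the same scale. These 3 genes stayed within 1.68-fold, 1.89-fold and 1.92-fold, whereas *Sftpc* itself varied 5.06-fold. They did not follow *Sftpc* at each step. The ratio of S44 to S38 was 0.545 for *Epcam*, 0.504 for *Cdh1* and 0.503 for *Muc1*, against 0.859 for *Sftpc*. That of S52 to S44 was 0.216, 0.434 and 0.440, against 0.230. The leukocyte gene *Ptprc* took a course near that of *Epcam*, at 4.30, 2.06 and 0.434 FPKM, so such a course was not particular to epithelial genes.

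The other members varied more relative to *Sftpc*. *Krt18* was at 7.48, 4.78 and 14.8 FPKM per 1000 FPKM of *Sftpc* in S38, S44 and S52, and *Krt8* at 5.88, 3.97 and 11.6. *Nkx2-1* was at 0.524, 0.438 and 1.17 and *Elf3* at 1.002, 0.537 and 1.95. *Krt19* was at 3.56, 2.86 and 15.4, and *Krt7* at 2.89, 2.33 and 20.7, a range of 8.87-fold. *Esrp1*, at 0.336, 0.0445 and 1.10, had the largest range. In S52 9 of 10 members were higher relative to *Sftpc* than in S38 and S44, with *Epcam* as the exception. Most genes shared this rise, because *Sftpc* itself was low in S52. Its log2 ratio of FPKM + 1 was -2.34 (S52 to S38) and -2.12 (S52 to S44). The lower quartile over genes whose mean reached 1 FPKM was -0.418 and -0.377. *Scgb1a1* relative to *Sftpc* was at 801, 773 and 574 FPKM per 1000 FPKM, a range of 1.39-fold, narrower than that of each member.

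**Figure D4:**
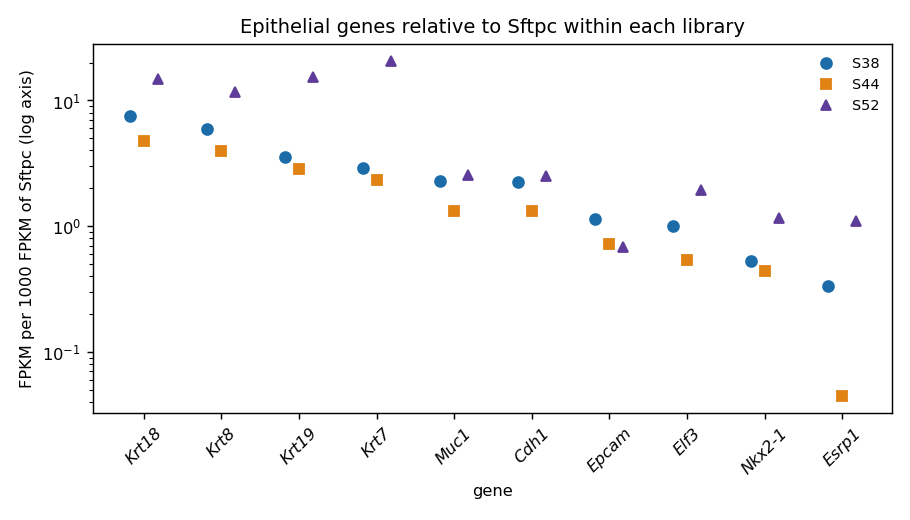
FPKM of each epithelial gene per 1000 FPKM of *Sftpc* in the same library (log axis), with 1 point per library. *Epcam*, *Cdh1* and *Muc1* stay within 1.92-fold, and *Krt7* is 8.87-fold higher in S52 than in S44.

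The keratins were examined as type I and type II partners. *Krt8* and *Krt18* are partners in simple epithelia and neighbours on chromosome 15, on opposite strands with 23.7 kb between them. The ratio of *Krt18* to *Krt8* stood at 1.27 (S38), 1.20 (S44) and 1.28 (S52), or 1.25 ± 0.042 (SD, n = 3), while each gene varied by over 2.5-fold between libraries. *Krt19* relative to *Krt8* was 0.606, 0.720 and 1.33, and *Krt7* relative to *Krt8* was 0.492, 0.587 and 1.79. *Krt7* and *Krt19* had a ratio of 0.811 in S38, 0.816 in S44 and 1.35 in S52. The pair of *Krt8* and *Krt18* therefore kept its proportion in all 3 libraries, and *Krt7* and *Krt19* kept theirs in S38 and S44. The sum of the type I keratins was 36.8, 21.9 and 19.8 FPKM and that of the type II keratins 29.2, 18.1 and 21.2 FPKM. The ratio of the type I sum to the type II sum was 1.26, 1.21 and 0.935.

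**Figure D5:**
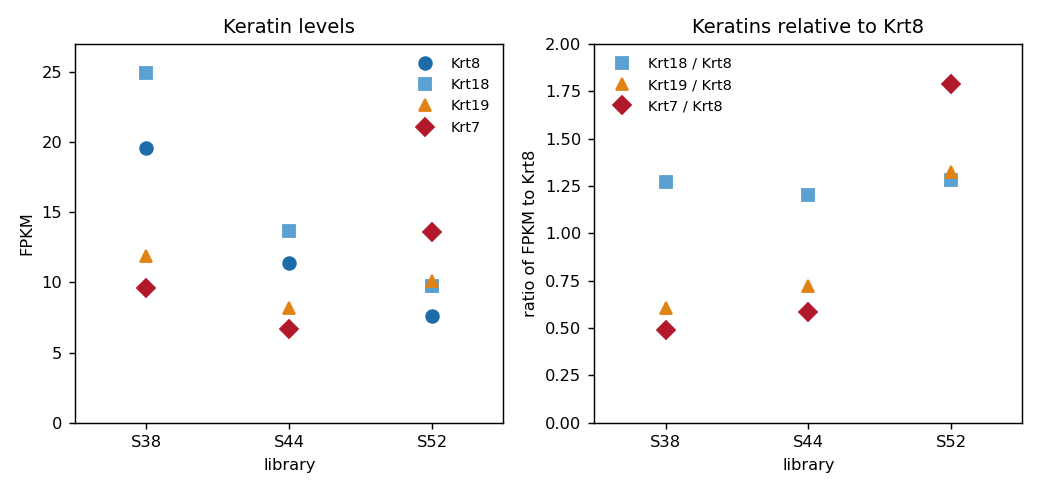
Left, FPKM of the 4 keratins in each library. Right, the ratio of *Krt18*, *Krt19* and *Krt7* to *Krt8* in the same library. *Krt18* to *Krt8* stays between 1.20 and 1.28, and *Krt7* to *Krt8* runs from 0.492 to 1.79.

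Part of the *Krt8* signal may be shared with other loci. Of 1908 windows of read length (51 bases) in the *Krt8* transcript, 29.5% also occur in transcripts of a pseudogene (*Krt8-ps*) or of an overlapping noncoding gene on the opposite strand. The kit does not mark strand. For *Elf3* the share was 5.67%, from a gene overlapping on the opposite strand. *Nkx2-1* had 1.38%, *Krt18* 0.577% and *Krt7* 0.198% of windows in other genes, and *Epcam*, *Cdh1*, *Krt19*, *Esrp1*, *Muc1*, *Sftpc* and *Scgb1a1* had none.

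Keratins outside the members were looked up in a list of 11. One of them, *Krt80*, a type II keratin encoded near *Krt7* on chromosome 15, stood far above every member. Its FPKM was 243 (S38), 237 (S44) and 217 (S52), or 232 ± 13.7 FPKM (SD, n = 3), above 98.3% of all genes. Relative to *Krt18* it was 9.73-fold, 17.3-fold and 22.2-fold higher. *Krt80* varied by 1.12-fold, whereas *Krt18* varied by 2.56-fold. Genes of the endothelial list varied by 1.08-fold (*Pecam1*) to 1.97-fold (*Erg*), and the alveolar type 2 gene *Lpcat1* by 1.03-fold. The cell source of *Krt80* was not tested. The basal cell keratins *Krt5*, *Krt14* and *Krt15* stayed below 1 FPKM in every library, and *Krt4*, *Krt6a* and *Krt20* were listed at 0 in all 3. Vimentin (*Vim*) was at 801, 819 and 1142 FPKM.

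Other genes of epithelia, from lists chosen with earlier results of these data known, were mostly low. Of 17 junction genes, 6 were at 1 FPKM or above in every library, against 43.9% of all genes. Lower in S52 than in S38 were 16, against 56.9% of genes whose mean reached 1 FPKM, a mean that most of the 17 did not reach. *Cldn3* was at 6.25, 5.19 and 2.71 FPKM and *Cldn7* at 5.93, 2.72 and 2.41 FPKM, in the library order used above. *Ocln*, the occludin gene, was the highest of the list, at 29.6, 29.2 and 15.6 FPKM. Of 13 genes for epithelial membrane proteins and proteases, 4 reached 1 FPKM in every library and 9 were lower in S52 than in S38. The same shares, 43.9% and 56.9%, stand beside these counts. *Spint2*, a protease inhibitor, was at 14.6, 12.3 and 5.25 FPKM. Of 15 transcription and splicing regulators none reached 1 FPKM in every library, and *Esrp2*, the paralogue of *Esrp1*, was at 0.764, 0.366 and 0.573 FPKM. S44 was the lowest library for *Esrp2* as for *Esrp1*.

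Marker lists of the epithelial cell types moved between libraries along different lines, and their part in the values of the members was not tested. In bulk RNA, fewer cells of a type and less RNA per cell cannot be told apart. Over 2-fold lower in S52 than in S38 were 11.7% of genes whose mean reached 1 FPKM. All 6 genes of secreted alveolar type 2 products were over 2-fold lower in S52 than in S38. Their summed level was 3937 FPKM (S38), 3289 FPKM (S44) and 794 FPKM (S52). The sums of 5 cell-bound alveolar type 2 genes were 138, 109 and 68.8 FPKM, with 3 of 5 over 2-fold lower in S52, and 93.4, 65.4 and 25.5 FPKM without *Lpcat1*, the highest of them. Of 7 ciliated cell genes, 6 were over 2-fold lower in S52 than in S38, with sums of 234, 224 and 153 FPKM. Most of these sums was *Tppp3*, and the other 6 genes summed to 45.7, 20.9 and 9.26 FPKM. *Foxj1*, the ciliated cell regulator, was at 4.55, 2.94 and 1.43 FPKM.

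The course of *Krt7*, highest in S52 and lowest in S44, was that of 17.8% of the 11770 genes and occurred in several lists. It was found in 4 of 6 alveolar type 1 genes, 3 of 4 mural genes, 3 of 15 epithelial regulators, 2 of 13 epithelial membrane and protease genes, 1 of 4 fibroblast genes and 1 of 10 endothelial genes. The endothelial gene was *Erg*, at 59.2, 43.1 and 84.8 FPKM, with a ratio of 1.43 between S52 and S38. The mural genes were *Pdgfrb* (6.47, 4.80 and 10.1 FPKM), *Rgs5* (5.75, 3.31 and 9.11 FPKM) and *Cspg4* (0.900, 0.670 and 1.81 FPKM). *Ager*, the defining alveolar type 1 marker, had an FPKM of 43.3 (S38), 33.4 (S44) and 66.0 (S52), a ratio of 1.53 between S52 and S38 beside 1.41 for *Krt7*. *Rtkn2* was at 0.851, 0.149 and 3.07 FPKM, *Akap5* at 0.718, 0.462 and 2.15 FPKM and *Pdpn*, whose product was used to exclude cells, at 2.39, 1.84 and 3.09 FPKM. *Hopx* and *Aqp5* were lowest in S52, and the sums of the alveolar type 1 list were 351, 376 and 278 FPKM. The direction of the sums rested on *Hopx*, since the other 5 genes summed to 57.7, 43.5 and 77.4 FPKM, highest in S52. Most of that smaller sum was *Ager*, so its direction rested on 1 gene in turn. *Aqp5*, at 10.5, 7.61 and 3.08 FPKM, went the other way. The part of these cell types in the level of *Krt7* was not tested.

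Mesothelial cells also contain keratins 8, 18 and 19. Of the 6 mesothelial genes 1 (*Upk1b*) reached 1 FPKM in every library, against 43.9% of all genes. Listed at 0 in S52 were 5, *Msln*, *Upk3b* and *Wt1* among them, as were 9923 of all 24346 genes. *Wt1* was also listed at 0 in S44, and *Upk1b* was at 7.80, 4.61 and 3.08 FPKM. The sums of that list were 10.1, 10.8 and 3.08 FPKM, and the part of mesothelial cells in the keratin values was not tested. Basal cell genes summed to 0.457, 0.297 and 0.020 FPKM, and their regulator *Trp63* was listed at 0 in all 3 libraries. Platelet genes, which mark another possible source of RNA, had sums of 1692, 1345 and 37.96 FPKM.

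The search for genes with a similar course covered 6224 genes outside the lists whose mean reached 10 FPKM. The 5 whose ratios lay nearest to the median course of the members were *Fabp5*, *Nupr1*, *Wdr92*, *Anxa1* and *Mt2*. Likeness was the distance over the log2 ratios of FPKM + 1 of S44 to S38 and S52 to S38, which rests on 3 libraries only. *Fabp5*, a fatty acid binding protein gene, was nearest, at a distance of 0.102, with 28.6 FPKM (S38), 15.5 FPKM (S44) and 12.4 FPKM (S52). Only 7 genes lay within 0.25 of the median course, in which S44 already stood well below S38.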

How the data were processed

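RNA of sorted adult lung ECs was made into poly-A selected libraries without strand information and read as pairs of 51 bp. For each gene symbol and library the authors deposited 1 FPKM, with mm10 as the genome. The submitters' processing notes list bcl2fastq 2.17, FastQC 0.11.5, Trimmomatic 0.36, TopHat2 2.1.0 and Cufflinks 2.2.1 without roles, while the paper's methods name STAR, HTSeq and edgeR for counts. The gene annotation is not given in the sources used here. All 3 columns were used, as deposited.

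Levels are means ± SD over libraries. Ratios between libraries are on the FPKM scale, and medians over members on log2(FPKM + 1), a pseudocount of 1 that understates differences of low genes. Fragments per library were estimated from 7077 genes with 1 basic GENCODE M21 transcript of 800 to 4000 bp, as the number that brought low values multiplied by length, less 160 bp, nearest to whole numbers. In S38, S44 and S52, 78.0%, 76.7% and 73.2% of such values were whole to within 0.15. On counts simulated for these 7077 genes the largest error of the depth was 0%. The simulated counts were whole by construction and their depths were among the values tried. That error therefore does not measure the error on the deposited values. Counting intervals (95%, exact Poisson for a level and exact binomial for a ratio) used the shortest basic transcript, and 3 fragments, the limit of a value of 0, correspond to at most 0.0691 FPKM for a member. They cover counting error only.

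The members, lists, motifs and tests were chosen with earlier results of these data known. Named genes are the members, *Sftpc*, *Scgb1a1*, genes of the lists and the 5 genes most alike in course. The lists cover junction, keratin, regulator, membrane and protease, alveolar type 1 and 2, club, ciliated, basal, neuroendocrine, mesothelial, endothelial, platelet, leukocyte, fibroblast and mural genes and endothelial counterparts. Those not described in the text gave these summed FPKM in S38, S44 and S52. Secreted club cell genes were at 2743, 2287 and 393, cell-bound club cell genes at 349, 264 and 64.7, and neuroendocrine genes at 2.38, 0.407 and 1.59. Leukocyte genes were at 28.5, 30.2 and 5.19, fibroblast genes at 70.7, 56.1 and 38.2, mural genes at 103, 55.5 and 101, and endothelial counterparts at 2152, 2278 and 2648. Python 3.11.15, numpy 2.4.6, pandas 2.3.3 and scipy 1.17.1 were used. Alternatives were leaving out each library, 2 rescalings, other pseudocounts, thresholds and folds, another centre and subsets of members. The E-box windows of some members are not reported here.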

Additional observations from a re-analysis of the deposited data

How the results depend on the processing

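Of 59 alternatives, 58 left the value within 1 SD between libraries, within 1.5-fold for a count, or within 1.5-fold for a ratio of libraries. Some of them could not move their value. Rescaling a library leaves ratios to *Sftpc* and *Scgb1a1* unchanged, and a pseudocount leaves the order of members unchanged. For the median member level the limit was wide, with an SD of 2.97 FPKM on a level of 4.32 FPKM. With a threshold of 10 FPKM in every library in place of 1 FPKM, 0 members passed instead of 7. Leaving out a library gave a median member level of 2.72 FPKM (without S38) to 5.66 FPKM (without S52). It left 7 to 9 members at 1 FPKM or above in every remaining library. For the order, members were ranked anew by the means of the remaining libraries, so the neighbouring pairs could differ from those above. Of the pairs so formed, 4 (without S38) to 9 (without S52) kept their order. Bringing every column to a total of 1000000 moved the median of all genes between S44 and S38 to -0.44 (log2), because column sums differ, and that of the members to -0.95. The members stayed below all genes, and *Krt7* stayed higher in S52 than in S38 under both rescalings, at ratios of 1.15 and 1.54. Without a pseudocount, an alternative chosen after seeing the data, the median log2 ratio of members from S52 to S38 was -1.36. Without *Krt7* and *Krt19*, also chosen after, it was -1.26. No paired analysis was possible because all libraries are of 1 condition. Depth limits *Esrp1* in S44 (13 estimated fragments) and *Epcam* in S52 (24).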
